A study of Mus musculus with 18 samples.

Results

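All 9 trisomic mouse embryo fibroblast lines of the study were set against all 9 control lines, which together make up the 18 arrays of the series. Of the trisomic lines, 1 carries an extra copy of chromosome 1 (trisomy 1), 4 are trisomic for chromosome 13, 3 for chromosome 16, and 1 for chromosome 19 (trisomy 19), while the control lines are labelled as chromosomally normal. They were taken by the trisomy or wild-type mark in their titles, 1 array per line. All were grown alike for 2 passages in DMEM with serum, and total RNA went onto Affymetrix expression arrays. The labels do not say whether each line came from its own embryo, nor give strain, age of the embryos or how the trisomies were bred, so the p-values measure only the spread between these lines. Trisomies 1 and 19 rest on a single line each.

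A trisomic cell transcribes most genes of the extra chromosome from 3 copies, so that many gene products are made in excess of their partners. Slow proliferation, protein folding stress and altered metabolism have been described in aneuploid yeast and mammalian cells, also where the extra chromosomes differ. The question put to these arrays was which genes outside chromosomes 1, 13, 16 and 19 stood higher or lower in the same way whichever chromosome was extra.

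Values are log2 signals, so a difference of 0.58 is 1.5-fold. The first number in an array's title recurs among trisomic and control lines, and the labels used here do not explain it. Each trisomic array was set against the control array, or the mean of both control arrays, with the same first number, and this is the matched difference. The 7 numbers each hold a single trisomy, so no control serves more than 1 of them. Genes whose mean log2 signal reached 4 were used, 6180 of them outside the 4 chromosomes. Genes on the extra chromosome stood above the other autosomes by 0.64 on the trisomy 1 array, by 0.81 ± 0.23 over the trisomy 13 arrays (SD, n = 4), by 0.74 ± 0.05 over those of trisomy 16 (SD, n = 3) and by 0.69 on the trisomy 19 array.

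Some arrays stood apart before any gene was compared. The Gapdh control probe sets of the 3' end exceeded those of the 5' end by 6.94 on trisomy 13 replicate 3, by 5.57 on trisomy 13 replicate 4 and by 6.55 on trisomy 16 replicate 1. The other 15 arrays lay between -0.20 and 1.41. These 3 arrays, called 3'-biased below, are all trisomic, and the main counts are given with and without them. Over groups the difference was 2.16 ± 3.17 in trisomic lines and 0.236 ± 0.523 in control lines (SD, n = 9 each), with a matched difference of 1.92 and an exact permutation p of 0.208 (two-sided, smallest possible 0.0017). The 3 biased arrays lie in 3 different numbers and largely set this p-value, so it says little on whether 3' bias goes with trisomy. All 13 fibroblast markers passed the level filter, led by the filament protein Vim, and their summed log2 values ran from 166.2 to 178.5 in trisomic and from 163.7 to 178.6 in control lines. Of 18 macrophage markers on the array 5 passed. Their sum ran from 49.4 to 99.0 in trisomic and from 46.6 to 85.6 in control lines, highest on trisomy 13 replicate 4. Of the other tissues' lists, the number of markers that passed ran from 0 (erythroid and liver) to 3 (neural). The neural sum ran from 43.4 to 57.6 in trisomic and from 44.3 to 50.6 in control lines, and 4 trisomic arrays lay above every control. Adipocyte sums ran from 24.5 to 34.9 in trisomic and from 25.9 to 31.3 in control lines, again with 4 arrays above. Those of epithelium ran from 31.2 to 36.5 in trisomic and from 28.3 to 34.0 in control lines, with 3 above. The neural sum was highest on trisomy 13 replicate 4 and the adipocyte and epithelium sums on trisomy 16 replicate 1, which are 3'-biased. The erythroid and liver lists, with 0 markers past the filter, each had 5 trisomic arrays above every control. Both were highest on the 3'-biased trisomy 13 replicate 3. Counts of this kind thus arose also for lists without a marker past the filter. The part of 3' bias and of other cell types in the results was not tested beyond the values without the biased arrays.

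No gene passed the test of a shared difference. In limma, blocked by the first number and with 1 common shift for the 9 trisomic arrays, 0 of 6180 genes reached a Benjamini-Hochberg adjusted p under 0.05 in either direction (0%). At an unadjusted p under 0.05 there were 399 genes (6.46%), 173 higher (2.8%) and 226 lower (3.66%). Without the 3'-biased arrays the count was again 0, with 543 genes at an unadjusted p under 0.05 (8.79%), 129 higher (2.09%) and 414 lower (6.7%). The share at an unadjusted p under 0.05 moved with single libraries. It was 11.99% without trisomy 13 replicate 2 and 11.8% without trisomy 16 replicate 3, but 4.09% without trisomy 13 replicate 3 and 3.14% without trisomy 13 replicate 4. In data simulated on these 6180 genes, the same test found 61.9% of genes shifted by 1 in all 9 trisomic arrays and 7.1% of those shifted by 0.5. The genes nearest to the threshold are described next.

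Gsta4, a glutathione S-transferase that detoxifies products of lipid peroxidation (chr9:78191966-78209349, GRCm38.p6), came closest. Its log2 value was 9.67 in trisomy 1, then 10.49, 10.33, 10.04 and 10.02 in trisomy 13, 11.10, 10.07 and 9.59 in trisomy 16 and 9.77 in trisomy 19, against 8.00 to 9.55 with a median of 8.77 in the 9 control lines. It was the 1 gene of 6180 (0.0162%) in which every trisomic line lay above every control line, and no gene had the opposite order. The shared difference was 1.32 ± 0.21 (SE; limma adjusted p = 0.0984), and 1.18 without the 3'-biased arrays (adjusted p = 0.206). The matched difference was smallest, 0.14, on trisomy 16 replicate 3. Without that array the difference of Gsta4 was 1.48 with an adjusted p of 0.0029, the only gene to pass when an array was left out.

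Tinagl1, a secreted glycoprotein of the extracellular matrix (chr4:130165600-130175122), had 11.10 in trisomy 1. It had 9.43, 9.51, 9.46 and 9.14 in trisomy 13, 9.99, 9.68 and 9.83 in trisomy 16 and 9.89 in trisomy 19, against 6.94 to 9.25 with a median of 8.73 in control lines. The groups overlapped by 1 trisomic array, trisomy 13 replicate 4, and 1 control array, replicate 1. The shared difference was 1.44 ± 0.24 (SE; adjusted p = 0.0984), and 1.505 without the biased arrays.

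Klk8, a secreted serine protease of the kallikrein family (chr7:43797532-43803826), was higher on 9 of 9 trisomic arrays than in their matched controls, but its groups overlapped. It had 7.20 in trisomy 1, then 6.13, 6.87, 7.30 and 7.18 in trisomy 13, 9.34, 9.13 and 7.96 in trisomy 16 and 6.68 in trisomy 19, against 4.33 to 7.88 with a median of 5.48 in control lines. Its 3 highest trisomic values came from trisomy 16 and its 3 highest control values from the lines that share numbers with them. The shared difference was 1.64 ± 0.29 (SE; adjusted p = 0.112), and 1.38 without the biased arrays (adjusted p = 0.562).

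Lox, the enzyme that cross-links collagen and elastin, showed the smallest spread of these genes. Its values ran from 14.80 to 15.19 with a median of 14.96 in trisomic lines and from 14.50 to 14.90 with a median of 14.72 in control lines. The matched difference was above 0 on 9 of 9 arrays, and the shared difference was 0.25 ± 0.04 (SE; adjusted p = 0.112; 0.25 without the biased arrays). Other genes near the threshold were picked after their values were seen. Cryab, a small heat shock protein, averaged 12.33 ± 0.45 in trisomic and 11.44 ± 0.40 in control lines (SD, n = 9 each; shared difference 0.89, limma adjusted p = 0.0984). S100a4, a calcium-binding protein of motile fibroblasts, stood higher by 0.75 (adjusted p = 0.335). Mgst1, a membrane-bound glutathione transferase, stood higher by 1.07 (adjusted p = 0.528) but was at -0.61 in trisomy 1.

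**Figure D1:**
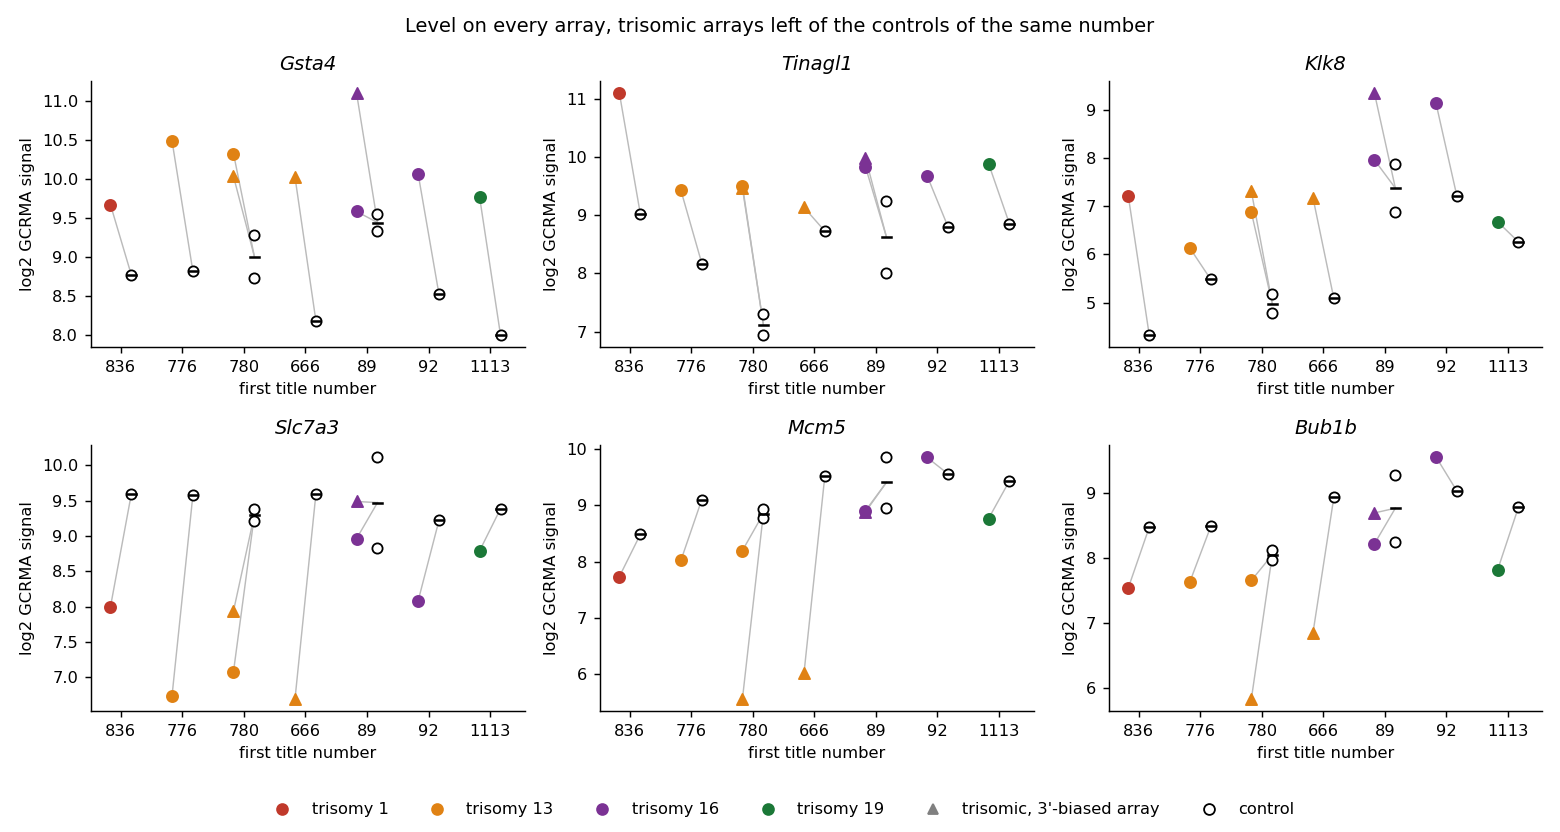
Log2 signal of Gsta4, Tinagl1, Klk8, Slc7a3, Mcm5 and Bub1b (vertical axes) by first title number, with trisomic lines left of control lines and triangles for the 3'-biased arrays. Gsta4 is the panel with no overlap, trisomic points lying between 9.59 and 11.10 and control points between 8.00 and 9.55.

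On the lower side the lowest p belonged to Slc7a3, a transporter of arginine and other cationic amino acids on chromosome X. It had 7.99 in trisomy 1, then 6.73, 7.08, 7.94 and 6.69 in trisomy 13, 9.49, 8.08 and 8.96 in trisomy 16 and 8.79 in trisomy 19, against 8.82 to 10.12 with a median of 9.38 in control lines. All trisomic arrays but trisomy 16 replicates 1 and 3 lay below the lowest control. The shared difference was -1.46 ± 0.32 (SE; limma adjusted p = 0.433), and -1.47 without the biased arrays. Matched differences were -1.60, -2.33, -0.55 and -0.60 in trisomies 1, 13, 16 and 19, so trisomy 16 stayed within 1.5-fold. Over all genes, the matched difference was above 0 on 9 of 9 arrays for 25 genes (0.405%) and below 0 on 9 of 9 for 26 (0.421%).

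The study's lines can also be read one trisomy at a time, as genes past 1.5-fold the same way in at least 3 of the 4 trisomies. This is a description without a test, since trisomies 1 and 19 have 1 array each. There were 54 such genes on the higher side (0.874%) and 75 on the lower side (1.21%). Leaving out the biased arrays gave 54 (0.874%) and 85 (1.38%), of which 34 (0.55%) and 31 (0.502%) were in both sets. A further 427 genes were past 1.5-fold in at least 3 trisomies but not the same way, out of 556, and 252 of 391 without the biased arrays. Nearest to the limit were Hoxc8 and Mitf inside it, for which 3 trisomies reached 0.585 and 0.590, and Rora outside it at 0.583. On the lower side Esyt1 at -0.586 and Nt5dc2 at -0.588 lay inside and Spata13 at -0.58451 outside.

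Few genes were past 1.5-fold in all 4 trisomies. Higher were Gsta4, Tinagl1, Anxa8 and Perp (4 genes, 0.0647%), and lower were Crabp1, a retinoic acid binding protein, and Ncapd2, a condensin subunit (2 genes, 0.0324%). Crabp1 and Ncapd2 were picked after their values were seen. With these arrays left out 5 were higher (0.0809%) and 15 lower (0.243%), and only Gsta4, Tinagl1 and Anxa8 were there both ways (3 genes, 0.0485%). The 15 lower genes, named after their values were seen, were Blm, Brca1, Bub1, Cdc7, Cep57l1, Dna2, Epha7, Gpr85, Gprasp1, Hey1, Mns1, Sass6, Sgo1, Slc7a3 and Srgap3. Crabp1 was lowest on the biased arrays. Its matched differences were -3.94, -4.11 and -2.06 on these 3 arrays and between -1.28 and -0.00081 on the other 6.

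Anxa8, a phospholipid-binding annexin, had matched differences of 1.55, 0.78, 2.32 and 1.29 in trisomies 1, 13, 16 and 19. Its trisomic values ran from 9.12 to 10.67 with a median of 10.44, against 5.74 to 10.66 with a median of 9.14 in control lines. The control lines were spread more widely than the trisomic lines, and the groups overlapped (shared difference 1.44 ± 0.37, SE; limma adjusted p = 0.597). Perp, a membrane protein induced by p53, had 0.65, 1.97, 0.74 and 2.89 in trisomies 1, 13, 16 and 19 (adjusted p = 0.667), and its shared difference was 1.52 with all arrays and 0.90 without the biased ones. Nqo1, a quinone reductase and classical target of the antioxidant factor Nrf2, had 0.50, 1.73, 1.56 and 1.27. Its values ran from 6.36 to 9.69 with a median of 7.39 in trisomic lines and from 4.95 to 8.09 with a median of 5.90 in control lines (shared difference 1.48 ± 0.49, SE; adjusted p = 0.667; 1.02 without the biased arrays).

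The remaining genes of this kind each left out a trisomy. Cck, a peptide hormone, was past 1.5-fold higher in trisomies 1, 13 and 19 (1.48, 1.19 and 2.07) but had -0.11 in trisomy 16. The keratin Krt19, the highest gene of the epithelium markers above, had 1.16, 1.35 and 1.37 in the same 3 and -0.21 in trisomy 16, and the part of epithelial cells in it was not tested. Baiap2l1, which shapes membranes with actin, had 1.31, 2.64 and 1.35 with 0.18 in trisomy 16. The deubiquitinating enzyme Uchl1 had 2.26, 2.31 and 1.30 in the same 3 and -0.87 in trisomy 16, and its trisomy 13 arrays ranged from -0.73 to 4.65. Ddc, the decarboxylase that makes dopamine and serotonin, had 1.95, 1.70 and 2.31 in trisomies 1, 16 and 19 and 0.07 in trisomy 13. The trisomy left out of the 54 higher genes was trisomy 1 for 17, trisomy 13 for 13, trisomy 16 for 15 and trisomy 19 for 5. Without the biased arrays these counts were 5, 13, 20 and 11.

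The lower genes also differed in which trisomy they left out. The trisomy outside the 75 was trisomy 1 for 28, trisomy 13 for 7, trisomy 16 for 28 and trisomy 19 for 10, and in 12, 2, 4 and 2 of these cases it was past 1.5-fold the other way. Without the biased arrays the counts were 5, 17, 33 and 15, with 1, 3, 6 and 2 past 1.5-fold the other way. Cth, the enzyme that makes cysteine from cystathionine, had -1.18, -1.05 and -1.42 in trisomies 1, 13 and 19 and 0.01 in trisomy 16. The mitotic histone kinase Haspin had -1.15, -1.27 and -1.30 in the same 3 and 0.05 in trisomy 16. The homeobox factor Meox1 had -2.96, -2.28 and -1.18 there and 0.33 in trisomy 16. Cyp7b1, an oxysterol hydroxylase, had -2.40, -1.07 and -1.37 against 1.74 in trisomy 16, and the secreted carbonic anhydrase Car6 -1.94, -1.69 and -2.13 against 1.15. Pag1, a membrane adaptor for the kinase Csk, had -1.46, -0.96 and -1.33 against 0.35, and Isoc1 had -1.21, -0.95 and -0.94 against 0.37. Trisomy 13 was the exception for Syne2, which ties the nucleus to the cytoskeleton (0.74, with -1.37, -1.35 and -1.35 in trisomies 1, 16 and 19). It was so too for Retreg1, a receptor for turnover of the endoplasmic reticulum (1.52, with -1.37, -1.47 and -1.01). The arrays of 1 trisomy differed as well. Retreg1 had 1.41, -2.42 and -3.39 on the 3 trisomy 16 arrays, the first of them 3'-biased.

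**Figure D2:**
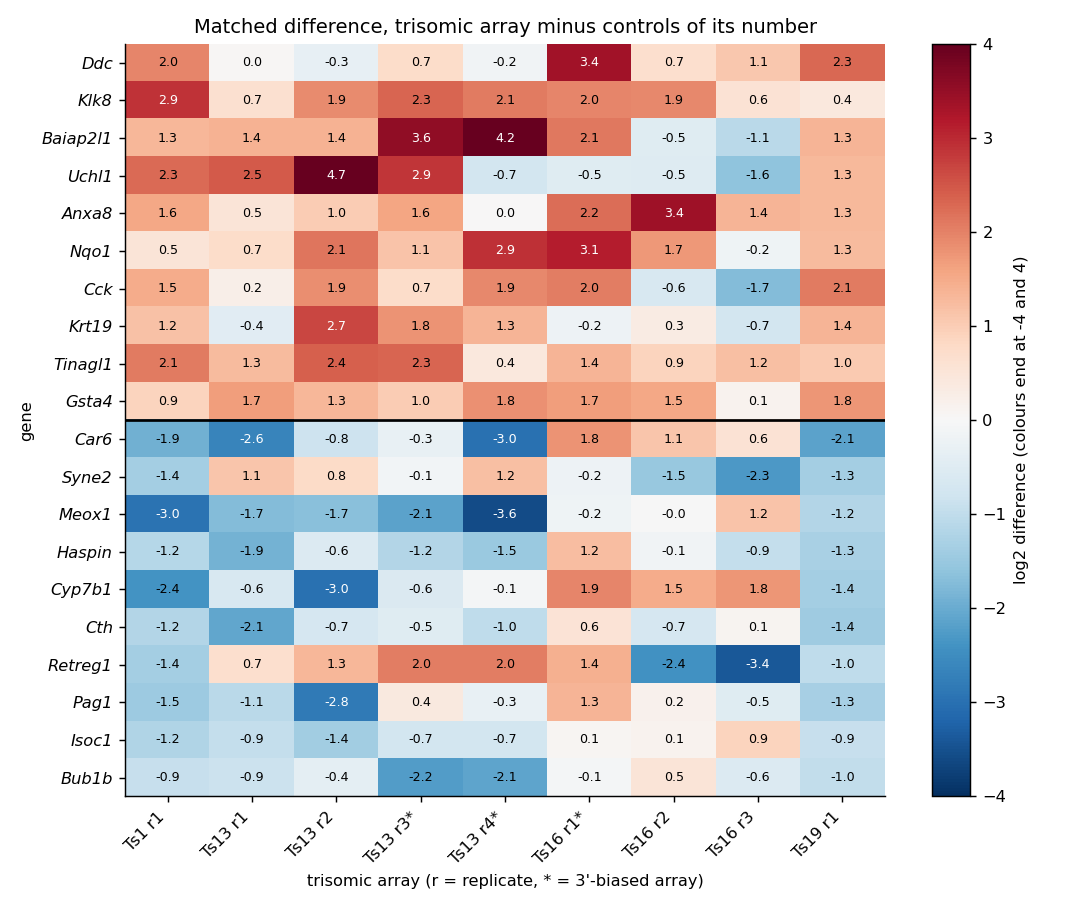
Matched log2 difference of 20 genes (10 higher above 10 lower) on each of the 9 trisomic arrays (columns), with colours ending at -4 and 4. They had the largest changes reached by at least 3 trisomies, among genes past 1.5-fold there with and without the biased arrays. Gsta4, Tinagl1, Anxa8 and Klk8 are above 0 in every column, while Retreg1, Cyp7b1 and Car6 hold both signs.

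Of the 22 gene lists, which were chosen with earlier results of these data known, those of proliferation had medians farthest from the median of all genes. MEF cultures are dividing cells. Mitosis genes build the spindle and its checkpoint, and replication genes load and run the MCM helicase and the fork polymerases. In the shared fit the median of 26 tested mitosis genes was -0.40, with 25 below 0, and that of 28 DNA replication genes -0.37, with 25 below 0, against -0.034 and 3405 of 6180 below 0 over all genes. No member passed the adjusted threshold. At an unadjusted p under 0.05, 0 mitosis genes were higher and 6 lower, and 0 replication genes higher and 8 lower, where 3.66% of all genes were lower. Without the biased arrays the medians were -0.54 (26 of 26 below 0) and -0.47 (28 of 28 below 0). With each array left out in turn they ran from -0.56 to -0.30 for mitosis and from -0.53 to -0.23 for replication. They were nearest to 0 without trisomy 16 replicate 3 (-0.30 and -0.23) and without control replicate 1 (-0.32 and -0.24). In a bulk culture, fewer dividing cells and less RNA per dividing cell cannot be told apart.

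Mcm5, a subunit of the replicative helicase, had 7.74 in trisomy 1, then 8.02, 8.20, 5.57 and 6.02 in trisomy 13, 8.89, 9.85 and 8.91 in trisomy 16 and 8.77 in trisomy 19. In control lines it ran from 8.48 to 9.86 with a median of 9.10. The lowest values were the 2 biased arrays of trisomy 13, and the shared difference was -1.19 ± 0.41 (SE; limma adjusted p = 0.667) with all arrays and -0.56 without the biased ones. Bub1b, a kinase of the spindle checkpoint, had 7.54 in trisomy 1, then 7.63, 7.65, 5.83 and 6.84 in trisomy 13, 8.70, 9.56 and 8.22 in trisomy 16 and 7.81 in trisomy 19. Its control lines ran from 7.97 to 9.29 with a median of 8.49 (shared difference -0.84 ± 0.30, SE; adjusted p = 0.667; -0.52 without the biased arrays). The 3 trisomy 16 values lay within the control range for Mcm5, and for Bub1b 2 lay within it and replicate 2 above it. Cenpe, a kinetochore motor, ran from 3.30 to 8.97 with a median of 5.51 in trisomic lines and from 5.87 to 8.72 with a median of 6.87 in control lines (-1.37 ± 0.37, SE; adjusted p = 0.667; -1.01 without the biased arrays). Cdk1, the kinase that drives mitosis, had a shared difference of -0.62, the helicase subunit Mcm2 -0.88 and Pold1, the catalytic subunit of a fork polymerase, -0.65. Pold1 was below its matched controls on 9 of 9 arrays.

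Taken array by array, the medians of both lists were below 0 in trisomies 1, 13 and 19 and of both signs in trisomy 16. The mitosis median was -0.92 on the trisomy 1 array (26 of 26 genes below 0) and -0.42 on the trisomy 19 array (26 of 26). On the trisomy 13 arrays it was -0.70, -0.49, -0.70 and -0.33 (24, 25, 20 and 16 of 26 below 0). On the 3 trisomy 16 arrays it was 0.58 (8 of 26 below 0), 0.32 (0 of 26) and -0.88 (26 of 26). Over all 6180 genes the medians of the arrays ran from -0.16 on trisomy 16 replicate 3 to 0.23 on trisomy 16 replicate 1. For DNA replication the medians were -0.84 on the trisomy 1 array, -0.55, -0.40, -0.29 and -0.51 on the trisomy 13 arrays, 0.71, 0.26 and -0.90 on the trisomy 16 arrays and -0.44 on the trisomy 19 array. Whether the trisomies differ in these lists was not tested.

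Control lines differed among themselves by as much. Control replicates 1 and 3 share the number 89 with trisomy 16 replicates 1 and 3, and replicate 1 minus replicate 3 had a mitosis median of 1.44 (25 of 26 genes above 0) and a replication median of 1.24 (27 of 28). Between control replicates 5 and 6, which share another number, the medians were -0.18 and -0.21. In number 89 each trisomic array has a control whose second title number is next to its own. Set against that neighbour alone, a choice made after the data were seen, the mitosis medians of trisomy 16 replicates 1 and 3 were -0.16 and -0.18 and the replication medians 0.077 and -0.22. Without the 4 arrays of number 89 the shared medians were -0.52 for mitosis and -0.47 for replication. With each array centred on its median, which moves all genes of an array alike, the median of all genes was 0.161 in place of -0.034. The medians were then -0.21 for mitosis (21 of 26 below 0) and -0.18 for replication (20 of 28).

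**Figure D3:**
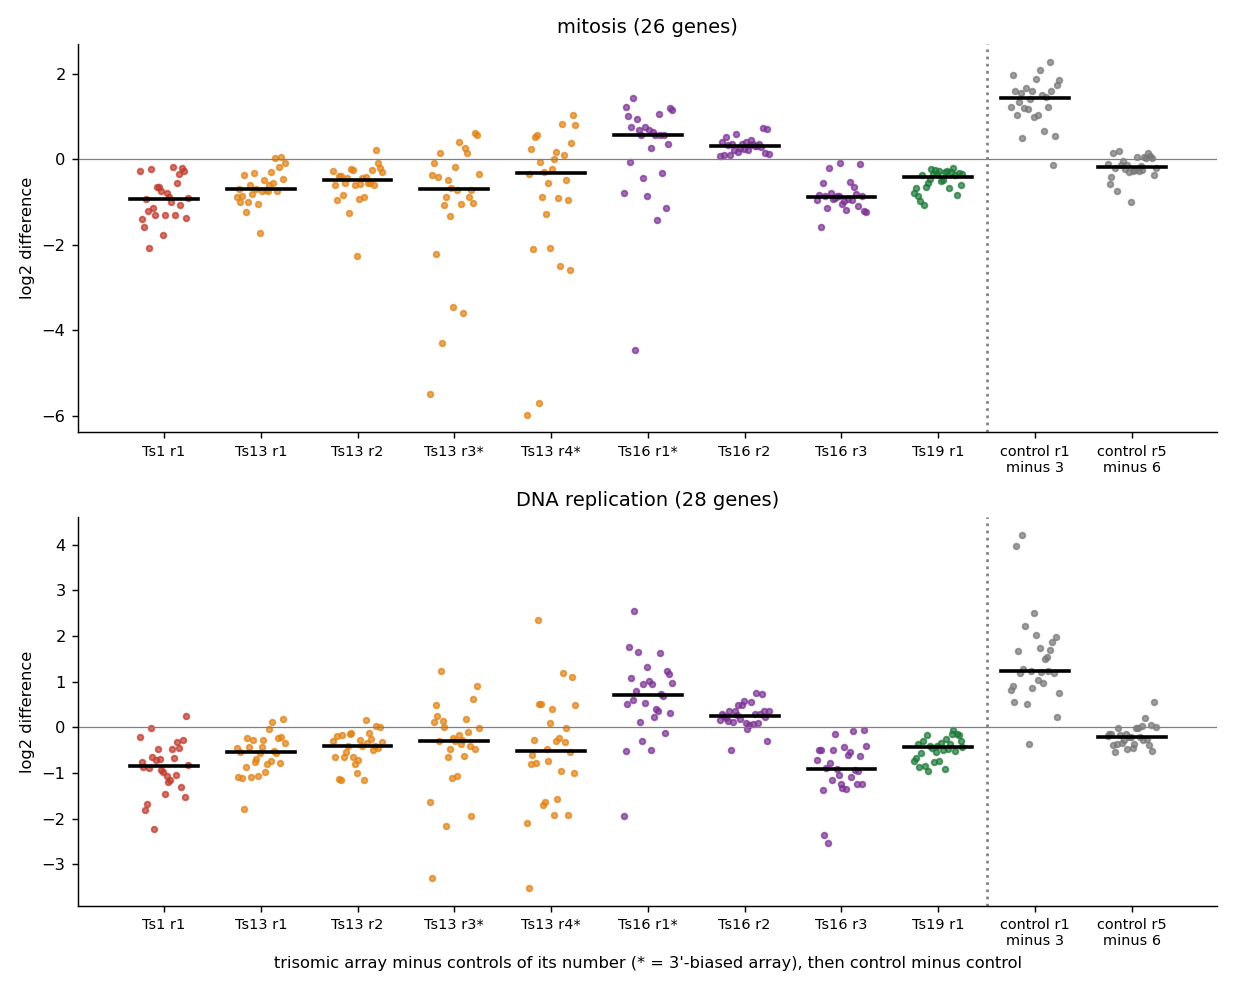
Matched log2 differences of 26 mitosis and 28 DNA replication genes (points) and their medians, on each of the 9 trisomic arrays and, to their right, between the control arrays that share a number. The trisomy 1, 13 and 19 medians lie below 0, trisomy 16 has both signs, and control replicate 1 minus 3 reaches 1.44.

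Promoters of proliferation genes carry short elements by which repressor and activator complexes time them in the cell cycle. They are shown because both lists have their members low on the same arrays. The 250 bases before the RefSeq start (GRCm38.p6, plus strand) are given for the mitosis genes Bub1b (chr2:118597961-118598210) and Cenpe (chr3:135212313-135212562) and the replication gene Mcm5 (chr8:75109259-75109508). Capitals mark the searched motifs on either strand, namely the cell cycle homology region (TTTGAA or TTCGAA), the E2F motif (TTTGGCGC, TTTGCCGC, TTTCGCGC or TTTCCCGC) and the CCAAT box.
Bub1b: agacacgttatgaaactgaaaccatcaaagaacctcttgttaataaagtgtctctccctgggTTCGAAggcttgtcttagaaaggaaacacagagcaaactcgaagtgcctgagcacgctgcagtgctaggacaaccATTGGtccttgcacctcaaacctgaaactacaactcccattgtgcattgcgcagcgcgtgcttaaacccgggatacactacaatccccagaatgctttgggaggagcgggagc
Cenpe: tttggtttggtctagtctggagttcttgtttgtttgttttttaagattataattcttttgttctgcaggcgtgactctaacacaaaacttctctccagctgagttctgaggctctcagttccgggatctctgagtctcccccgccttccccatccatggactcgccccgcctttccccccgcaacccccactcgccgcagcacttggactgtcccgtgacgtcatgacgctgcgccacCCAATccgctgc
Mcm5: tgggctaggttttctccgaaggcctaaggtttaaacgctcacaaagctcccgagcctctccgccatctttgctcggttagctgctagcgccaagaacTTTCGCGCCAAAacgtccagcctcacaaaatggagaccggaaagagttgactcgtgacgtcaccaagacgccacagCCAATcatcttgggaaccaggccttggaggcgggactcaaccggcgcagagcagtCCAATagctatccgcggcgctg
In this window Bub1b held 1 cell cycle homology region and 1 CCAAT box, Cenpe 1 CCAAT box, and Mcm5 2 E2F matches that overlap on opposite strands and 2 CCAAT boxes. Over 300 bases, with the 50 after the start, the cell cycle homology region was found in 77.3% of 22 mitosis promoters, in 11.1% of 27 replication promoters and in 19.2% of all 32851 promoters. The E2F motif was found in 4.55%, 33.3% and 2.26% of them, and the CCAAT box in 68.2%, 63% and 37.4%. A match is a run of letters and does not show a bound factor.

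In the shared fit the stress and growth pathways lay closer to the median of all genes (-0.034) than the proliferation lists did. No member of any list passed the adjusted threshold. The 17 p53 target genes had a median of 0.02 (9 above 0, 8 below), with the cyclin Ccng1 at 0.30 (adjusted p = 0.667). The 14 CDK inhibitors and Rb genes had -0.04, in which the inhibitor Cdkn2b stood at 0.42, higher on 8 of 9 arrays, and Cdkn1b at -0.46 (adjusted p = 0.667 for both). Heat shock and chaperone genes had -0.03 (9 of 23 above 0), with the inducible chaperone Hspa1a at 0.57 (adjusted p = 0.667). Unfolded protein and amino acid stress genes had -0.16 (5 of 25 above 0) and -0.03 without the biased arrays. The serine enzyme Shmt2 among them had -0.94 with all arrays and -0.12 without the biased ones. Proteasome subunits had -0.08 (6 of 28 above 0). Autophagy and lysosome genes had 0.03 with all arrays (17 of 32 above 0) and 0.17 without the biased ones (26 of 32). Without the biased arrays the median of all genes was -0.052 (2508 of 6180 above 0).

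Nrf2 antioxidant genes, to which Gsta4 and Nqo1 belong, lay on both sides of 0 with all arrays and mostly above it without the biased ones. Their median was -0.08 (11 of 22 above 0) with all arrays and 0.13 (18 of 22) without the biased ones. Over all genes the medians were -0.034 (2775 of 6180 above 0) and -0.052 (2508 of 6180). Whether the list differs from all genes was not tested. Gstm5, another glutathione transferase of the list, stood at -0.30, below its matched controls on 9 of 9 arrays (adjusted p = 0.667). Glutamine and one-carbon genes had -0.23 (7 of 24 above 0; -0.19 without the biased arrays). In this list 0 genes were higher and 4 lower at an unadjusted p under 0.05, where 3.66% of all genes were lower, among them Slc7a3, the alanine transaminase Gpt2 (-0.44) and Adsl of purine synthesis (-0.42). Glycolysis genes had -0.06 (9 of 20 above 0) and 0.10 without the biased arrays (13 of 20). The muscle enolase Eno3 stood at 1.43 ± 0.36 (SE; limma adjusted p = 0.597), with 1.75, 2.45, 0.52 and -0.19 in trisomies 1, 13, 16 and 19.

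Most protein synthesis genes lay below 0. Cytosolic ribosomal proteins had a median of -0.07 (29 of 34 below 0) and -0.02 without the biased arrays (25 of 34). Ribosome biogenesis genes had -0.19 (22 of 27 below 0) and -0.15 without the biased arrays (24 of 27). Of all 6180 genes 3405 were below 0, and 3672 without the biased arrays. With centred arrays, where the median of all genes is 0.161, these lists were at 0.12 and 0.0019. Oxidative phosphorylation had -0.08 (10 of 42 above 0) and cholesterol and fatty acid synthesis -0.12 (5 of 19 above 0), or 0.16 without the biased arrays. Fibroblast programmes were spread in both directions. Matrix genes had -0.10 (13 of 36 above 0) and 0.07 without the biased arrays (25 of 36). Secreted inflammatory and senescence factors had 0.13 (17 of 25 above 0). Smooth muscle genes had -0.05 (4 of 13 above 0) and 0.12 without the biased arrays (10 of 13), and interferon genes -0.06 (5 of 11) and 0.05 without them (8 of 11). Imprinted growth genes had -0.07 (6 of 16 above 0) and -0.02 without the biased arrays (7 of 16). Among the secreted factors Igfbp7, an IGF-binding protein, stood at 0.46 and the protease inhibitor Timp2 at 0.25 (adjusted p = 0.667 for both), but Timp2 was at -0.23 with the mean of its probe sets. Serum response genes had 0.03, with trisomy medians from -0.31 in trisomy 16 to 0.75 in trisomy 1. The 14 Hox genes had 0.19 (11 above 0) with all arrays and 0.09 (8 above 0) without the biased ones.

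Each trisomy differed from its controls at many genes, but control lines did so as well. The share past 1.5-fold either way was 31.9% for trisomy 1 (13.6% higher, 18.3% lower) and 30.4% for trisomy 13 (10.3% higher, 20.1% lower). It was 14.9% for trisomy 16 (5.21% higher, 9.68% lower) and 10.9% for trisomy 19 (4.95% higher, 5.95% lower). With the biased arrays left out, trisomy 13 had 5.91% higher and 8.09% lower, and trisomy 16 had 5.95% higher and 8.83% lower. By array it was 15.2% and 28.4% on the unbiased trisomy 13 arrays and 48.3% and 58.7% on the biased ones, and 51.1% on the biased trisomy 16 array with 11.9% and 31.4% on the others. Between control replicates 1 and 3 it was 46.0%, and between control replicates 5 and 6 it was 9.40%. Trisomy 16 replicate 3 differed from control replicate 1 at 51.6% of genes and from control replicate 3 at 13.5%. The 3 biased arrays thus gave the largest matched differences, and control replicate 1 minus 3 came next.

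**Figure D4:**
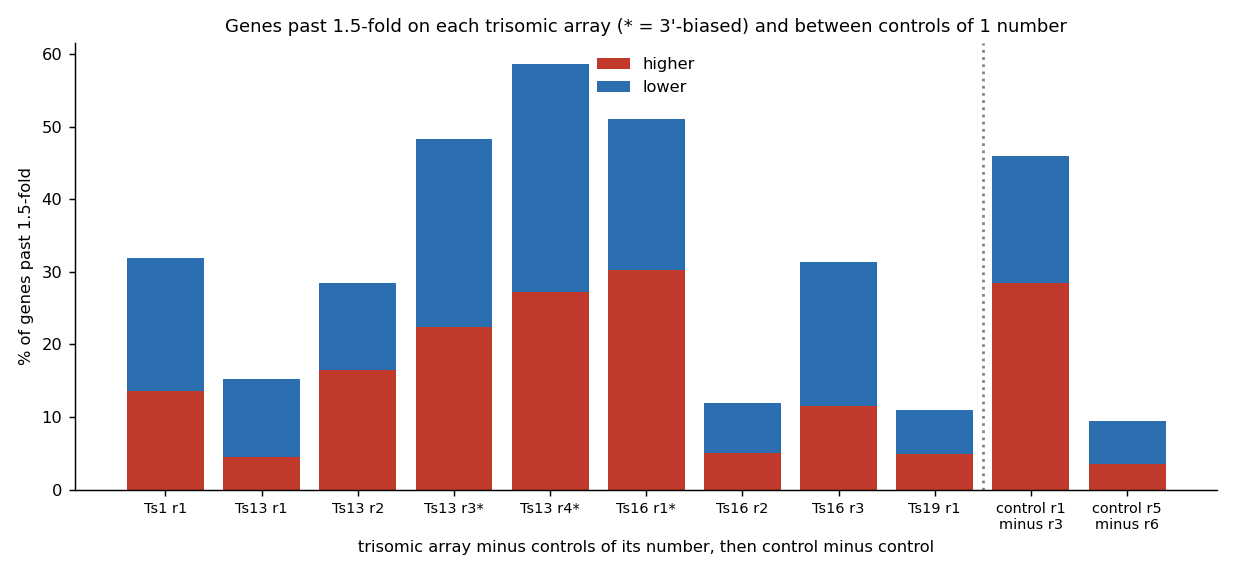
Percentage of 6180 genes past 1.5-fold from the matched controls (vertical axis) on each of the 9 trisomic arrays, then between the control arrays that share a number. The 3 biased arrays reach 48.3% to 58.7%, control replicate 1 minus 3 reaches 46.0%, and control replicate 5 minus 6 stays at 9.40%.

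The profiles of the trisomies over 6180 genes had correlations of both signs. Genes are not independent replicates, and the arrays share the normalization and any 3' bias. Pearson's r was -0.046 between trisomies 1 and 13, -0.477 between 1 and 16, 0.034 between 1 and 19, 0.264 between 13 and 16, -0.017 between 13 and 19 and 0.234 between 16 and 19. On the unbiased arrays the same pairs had 0.467, -0.142, 0.034, -0.243, -0.050 and 0.251. Trisomies 1 and 13 had the highest r then. The single trisomy 1 array had 0.539 with trisomy 13 replicate 2 and 0.136 with replicate 1. Over pairs of single arrays, the 3 pairs of 2 biased arrays had r between 0.685 and 0.812. The 13 pairs of unbiased arrays from different trisomies ran from -0.317 to 0.539 with a median of -0.009. Arrays of the same trisomy without shared controls made few pairs, and these lay above the medians of different trisomies. Their 2 unbiased pairs had 0.311 and 0.362, below the highest of the 13. Their 4 pairs with 1 biased array ran from 0.007 to 0.268 with a median of 0.149. The 12 such pairs of different trisomies ran from -0.442 to 0.067 with a median of -0.134.

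**Figure D5:**
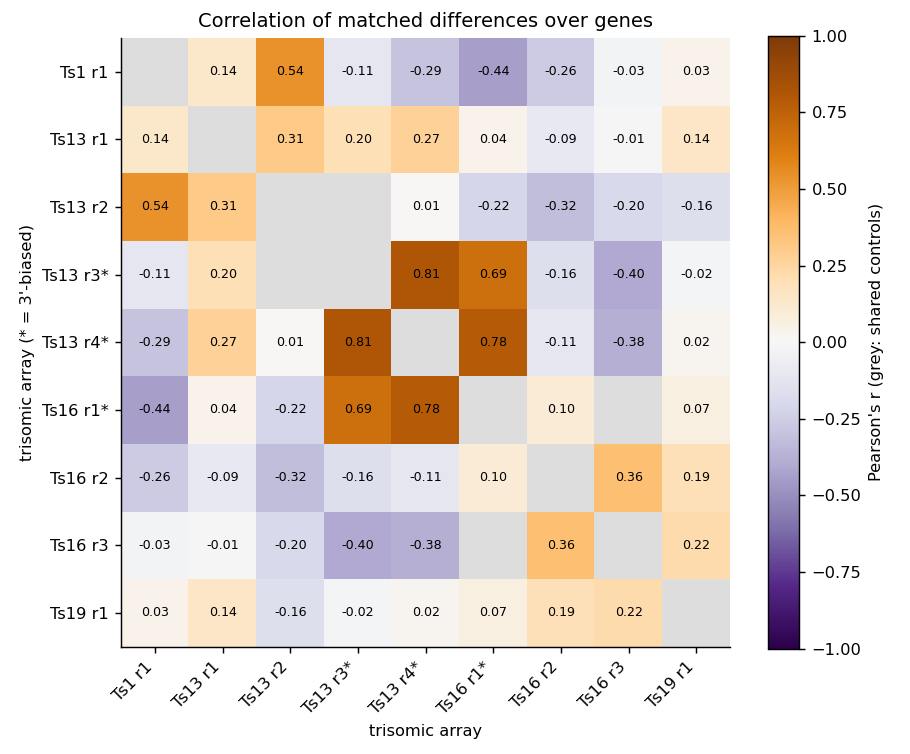
Pearson's r between the matched differences of each pair of the 9 trisomic arrays over 6180 genes, with grey cells where arrays share controls. The highest values, 0.685 to 0.812, are the 3 pairs of 3'-biased arrays, while unbiased pairs from different trisomies run from -0.317 to 0.539.

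Whether the 4 trisomies differ from each other was tested gene by gene with limma's F test on 3 degrees of freedom. It gave 0 genes at an adjusted p under 0.05 (0%), with 179 at an unadjusted p under 0.05 (2.9%). It again gave 0 on the unbiased arrays, with 362 at an unadjusted p under 0.05 (5.86%). In data simulated with the spread around 1 common shift, this test found 27.7% of genes shifted by 2 in trisomy 13 alone and 0.7% of those shifted by 1. The genes of lowest p were secreted factors and a patterning gene. Mdk, the growth factor midkine, had 10.75 in trisomy 1, then 3.50, 4.32, 5.45 and 3.50 in trisomy 13, 7.89, 7.75 and 8.45 in trisomy 16 and 10.53 in trisomy 19, and averaged 9.05 ± 0.72 in control lines (SD, n = 9). Its matched differences were 0.62, -4.70, -0.76 and 1.10 in trisomies 1, 13, 16 and 19 (limma F test, adjusted p = 0.144). Ptx3, a soluble pattern recognition protein, had -2.32, -2.24, 1.06 and 0.70 (adjusted p = 0.138). The homeobox gene Lhx2 had -4.79, -0.46, 1.404 and -0.37 (adjusted p = 0.286), and Sfrp2, a secreted modulator of Wnt signalling, -2.10, -6.28, 3.71 and 2.43 (adjusted p = 0.468).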

How the data were processed

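The authors deposited log2 expression values of 22690 probe sets (64 controls), made with affy and GCRMA per the submitters' processing notes. The sources used here give neither versions nor settings, nor whether all 18 arrays were summarised in 1 run. Per the labels, Trizol extracts (5 ug of total RNA) were turned into biotin-labelled cRNA. The number of arrays limits the precision. No array column was left unused.

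From these values, probe sets listed with 1 gene were kept (20393; 691 had several and 1606 none), the one of highest mean per gene (12394 genes), and the 7382 with a mean of at least 4. Genes were placed through RefSeq GRCm38.p6, in which 20364 of these probe sets had a gene. limma 3.58.1 in R 4.3.3 fitted the first number as a block plus trisomic against control (10 residual degrees of freedom, eBayes with a trend, two-sided, Benjamini-Hochberg over 6180 genes), and, with a coefficient per trisomy, the F test. Trisomies 1 and 19 were assumed to vary like the others. Other values were computed in Python 3.11.15 with numpy 2.4.6 and pandas 2.3.3, and figures drawn with matplotlib 3.10.9.

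Named were genes passing the test, the 10 in each direction with the largest change reached by at least 3 trisomies with and without the biased arrays, up to 3 of lowest p in each of 22 lists, and 4 of lowest F test p, 86 in all. Promoters of 67 of these were found in the RefSeq table. The members and lists were chosen with earlier results of these data known. A Gapdh difference over 3 marks a 3'-biased array. The fits were tested on simulated data with 200 changed genes in each of 5 runs, whose noise was drawn independently per gene and array.

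The deviations of trisomic and control arrays of the same first number correlated with a median of 0.189 (-0.387 to 0.684, 13 pairs), those of different numbers with -0.060 (68 pairs). In number 89, arrays with neighbouring second numbers correlated at 0.617 and 0.684 and the crossed pairs at -0.281 and -0.387. Alternatives were other filters, probe set summaries, scalings, blocks, covariates, weights and thresholds, and leaving out arrays.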

Additional observations from a re-analysis of the deposited data

Results flagged for a closer look

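The named genes were checked for outlying arrays by Dixon's ratio in trisomy 13 (n = 4) and in the control lines (n = 9), not in the other trisomies. Of these 172 gene groups, 11 (6.4%) had 1 array far from the others, a share near the 1 in 20 that chance gives. In trisomy 13, Cck had 6.544 on replicate 2 (nearest other array 5.403), Hoxd9 4.029 on the 3'-biased replicate 3 (4.471), Lhx2 5.732 on the biased replicate 4 (4.491), Tpp1 12.21 on replicate 1 (12.55) and Uqcrc2 12.45 on replicate 2 (13.05). Among control lines, 3 of the values were on replicate 3, namely Gbp2 at 5.452 (nearest 7.162), Pag1 at 6.883 (8.6) and Vcl at 13.74 (14.16). Control replicate 9 was low for Mthfd2 at 10.8 (11.65) and Rpl8 at 14.45 (14.88), and control replicate 2 for Igf2 at 12.34 (13.51). Control replicate 3 is the array whose proliferation genes lay below those of control replicate 1 of the same number.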

How the results depend on the processing

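Each count or test was recomputed under each alternative. Of these recomputed values 100 stayed within 1.5 times, or on the same side, and 13 moved. The replicate number in the titles counts arrays within a group. As a block it sets the trisomy 1, 13 and 19 arrays with controls of other first numbers. The shared test found 1 gene with the replicate number as replicate block (Mgst1, 1.78, adjusted p = 0.0083) and between 0 and 1 genes when each array was left out in turn. It found 0 in the other fits, whose lowest adjusted p ran from 0.052 (without number 89, added after the data were seen) to 0.958 (each trisomy with equal weight), and was 0.081 with neighbouring title numbers as replicate block (added likewise). The F test found 33 genes without the level filter, 4 with no replicate block, 1 with the replicate number as replicate block, 1 with the Gapdh difference as a covariate, and between 0 and 2 when an array was left out (Sfrp2 without trisomy 13 replicate 1 or control replicate 4, Ptx3 and Cpxm2 without trisomy 13 replicate 3). The higher genes past 1.5-fold in at least 3 trisomies numbered 87 with arrays centred on their medians, 12 at 2-fold and 44 to 71 with an array left out. The lower genes numbered 9 at 2-fold, 120 with all 9 controls as reference and no replicate block, and 67 to 102 with an array left out. These counts have no value when trisomy 1, trisomy 19 or control replicate 8 or 9 is left out. The cause of these moves was not tested.

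Of 86 named genes 18 changed sign in some fit. Without the biased arrays the shared difference was 0.035 for Ahsa1, 0.156 for Ebp, 0.088 for Fasn, 0.287 for Flna (0.036 with the Gapdh covariate), 0.087 for H2-K1, 0.167 for Ier2, 0.0054 for Igf2 and 0.0195 for Rps14. The replicate number as replicate block mixes first numbers. With it the shared difference was -0.75 for Cck, 1.89 for Cyp7b1, 0.32 for Meox1 and 0.91 for Retreg1. With the mean of a gene's probe sets it was -0.19 for Map1lc3b, 0.050 for Retreg1, -0.23 for Timp2, -0.57 for Vcl and -0.30 for Wipi1. With centred arrays, which moves all genes of an array alike (median of all genes 0.161), it was 0.014 for Ndufv2, 0.118 for Retreg1 and 0.0048 for Uqcrc2. Retreg1 was at 0.184 without number 89 and between -0.389 and 0.380 in the fits that left out 1 array. Signals near background and the single arrays of trisomies 1 and 19 limit all values.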

Other observations

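Genes on the 4 extra chromosomes can be read in the 3 trisomies that do not carry them in excess. Of 1194 such genes, 3 were past 1.5-fold higher in all 3 other trisomies and 5 lower, a description named after the values were seen. With the biased arrays left out, 2 and 4 of them were in these sets. Of the 6180 genes outside these chromosomes, 5 to 17 were higher in exactly 3 trisomies, depending on the trisomy left out, and 4 in all 4. Likewise 7 to 28 were lower in exactly 3, and 2 in all 4. Whether the 1194 genes differ from this background was not tested. Fst, the activin antagonist follistatin on chromosome 13, had matched differences of 2.42 in trisomy 1, 1.02 in trisomy 16 and 2.56 in trisomy 19. Ctla2a, a protease inhibitor on the same chromosome, had 1.19, 1.30 and 1.22 there. Cd55, which guards cells against complement and lies on chromosome 1, had 0.92 in trisomy 13, 1.22 in trisomy 16 and 1.45 in trisomy 19, but 0.10 in trisomy 13 without the biased arrays.

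On the lower side Cdc45, a component of the replicative helicase on chromosome 16, had -1.41, -0.72 and -1.09 in trisomies 1, 13 and 19, against 0.78 in trisomy 16, which carries it in excess (0.096 without the biased array). Igfbp5, an IGF-binding protein on chromosome 1, had -1.97 in trisomy 13, -1.07 in trisomy 16 and -1.81 in trisomy 19. Gfra1 on chromosome 19, a receptor for glial-derived growth factor, had -0.96, -1.20 and -2.17 in trisomies 1, 13 and 16. The others were Edil3 and Suco.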
